A study of Mus musculus with 2 samples.

Results

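A set of 10 inflammatory signalling genes was followed across the cell types of mouse knee cartilage preparations, namely Nfkbia, the chemokine genes Cxcl1, Cxcl2, Cxcl5, Cxcl12, Ccl2 and Ccl7, the cytokine genes Il6 and Lif, and the receptor gene Il1rl1. They are among the 32286 features of each count matrix, were chosen by name, and all 10 were found once in both matrices. Knee joint cartilage cells of Procr-CreER;tdTomato mice were read in 2 single-cell RNA libraries made in droplets, after being sorted as negative for CD45, Ter119, CD31 and DAPI and positive for tdTomato. The trace library came from mice taken 4 weeks after tamoxifen and the pulse library from mice taken 2 days after tamoxifen, which both groups received at 4 weeks of age. Both groups carry the Cre and the reporter and received the drug, and each library pools 3 mice with no map from cell to mouse. In these mice a tamoxifen-dependent Cre recombinase under the control of Procr switches on a red reporter for good. The trace library is thus meant to hold cells that expressed Procr at labelling together with their progeny, whatever tissue they belong to.

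NF-kB is a transcription factor held in the cytoplasm by inhibitor proteins, of which the product of Nfkbia is the best known. Signals through the IL-1, TNF and Toll-like receptors destroy the inhibitor, and the freed factor switches on chemokine and cytokine genes as well as Nfkbia itself, which closes a feedback loop. In joints, fibroblast-like and cartilage cells are known to make such chemokines when stimulated, and the chemokines draw neutrophils and monocytes into the tissue.

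According to the GENCODE M21 annotation of GRCm38 (the mm10 build), Cxcl1 (chr5:90891241-90893115) and Cxcl2 (chr5:90903871-90905938) lie 10.8 kb apart on the plus strand, and Ccl2 (chr11:82035571-82037453) and Ccl7 (chr11:82045712-82047525) lie 8.26 kb apart. RefSeq promoter windows of GRCm38.p6 were matched for 7 of the 10 genes, with 2 windows for Il1rl1. A match to the NF-kB consensus motif on either strand within the 250 bases before the start was found for Nfkbia, Cxcl1, Cxcl2 and Il6, which was 4 of the 8 windows, against 1281 of all 32851 windows in the table (3.90%). The windows of Cxcl12, Lif and Il1rl1 held no match. The 200 bases before the start of the 4 genes with a match are shown 5′ to 3′ on the gene's strand, because they carry the motif, and capitals mark the matched bases. In Cxcl1 and Cxcl2 the capitals hold a pair of overlapping matches, 1 on each strand, that begin 71 and 97 bases before the start.
Nfkbia (chr12:55492648-55492847, minus strand): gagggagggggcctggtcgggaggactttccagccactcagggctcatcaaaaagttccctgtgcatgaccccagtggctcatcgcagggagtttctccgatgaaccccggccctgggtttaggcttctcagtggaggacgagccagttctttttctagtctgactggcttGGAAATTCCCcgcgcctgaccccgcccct
Cxcl1 (chr5:90891045-90891244, plus strand): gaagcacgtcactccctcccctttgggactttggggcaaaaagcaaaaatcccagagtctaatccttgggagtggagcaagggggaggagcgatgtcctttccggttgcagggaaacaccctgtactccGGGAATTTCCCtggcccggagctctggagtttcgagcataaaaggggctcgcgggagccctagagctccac
Cxcl2 (chr5:90903699-90903898, plus strand): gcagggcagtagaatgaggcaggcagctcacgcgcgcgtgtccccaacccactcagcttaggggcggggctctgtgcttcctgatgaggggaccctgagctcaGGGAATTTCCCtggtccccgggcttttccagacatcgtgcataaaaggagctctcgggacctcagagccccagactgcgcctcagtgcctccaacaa
Il6 (chr5:30012914-30013113, plus strand): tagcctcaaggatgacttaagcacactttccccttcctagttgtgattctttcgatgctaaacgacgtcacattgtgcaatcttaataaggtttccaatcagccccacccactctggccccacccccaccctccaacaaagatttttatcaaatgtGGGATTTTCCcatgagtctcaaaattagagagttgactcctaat
The capital runs of Cxcl1 and Cxcl2 are identical. Read on the motif's own strand, the Nfkbia match has the same letters as the plus-strand match of Cxcl1 and Cxcl2, while that of Il6 differs. A match describes the letters only, and no binding was measured.

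The libraries held 10423 trace and 6863 pulse barcodes with 40284041 and 23306063 UMIs (unique molecular identifiers, each counting 1 captured transcript). Cells with 500 or more genes and 10% or less mitochondrial UMIs numbered 9247 in trace (median 3645 UMIs) and 6533 in pulse (median 2837 UMIs), and 15 kept barcodes occurred in both. Each cell was given to a type by the density of its marker genes, and 16.4% of trace and 17.3% of pulse cells met no gate. The label of superficial cells held for a part only: 4418 trace and 3672 pulse cells were superficial chondrocyte-like (Prg4, Clu and Cilp with Acan and Col2a1), 158 and 755 were deeper chondrocyte-like (Matn3, Col9a1), 814 and 335 synovial lining-like (Clic5, Col22a1), and 653 and 213 loose connective tissue-like (Pi16, Clec3b, Dpt). Among the 10 leading genes of the superficial gate were Chil1, Nos2, Serpina3n and Mmp3, which are known as inflammation-responsive genes. Smaller gates held 138 trace and 92 pulse cells with Npy and Angptl7, 263 and 31 mural-like cells (Myh11, Notch3), 341 and 62 endothelial-like cells and 187 and 43 osteoblast-like cells. The trace library also held 256 neutrophil-like and 191 B lineage-like cells, against 4 and 0 in pulse. The sort should have removed these blood and vessel cells, yet Ptprc (the CD45 gene) stood at 1076 CPM in trace neutrophil-like cells, and Pecam1 (the CD31 gene) at 1086 CPM in trace and 1184 CPM in pulse endothelial-like cells. The libraries also differed in sex, with Xist at 360.1 CPM in trace and 0.130 CPM in pulse and Ddx3y at 0.331 CPM in trace and 184 CPM in pulse. Chase time, age at collection, sex, mice and library preparation therefore cannot be told apart.

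Levels are UMIs summed over the cells of a gate and scaled to 1000000 UMIs of those cells (CPM). With 1 library per group no test across animals was possible. Intervals in parentheses are exact 95% intervals that cover counting error only, and a member was called higher or lower at a ratio of 2-fold or more when it reached 20 CPM in at least 1 of the groups compared. A member below 10 CPM in 1 group could pass that filter only by being high in the other, so counts of called members are descriptions.

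**Figure D1:**
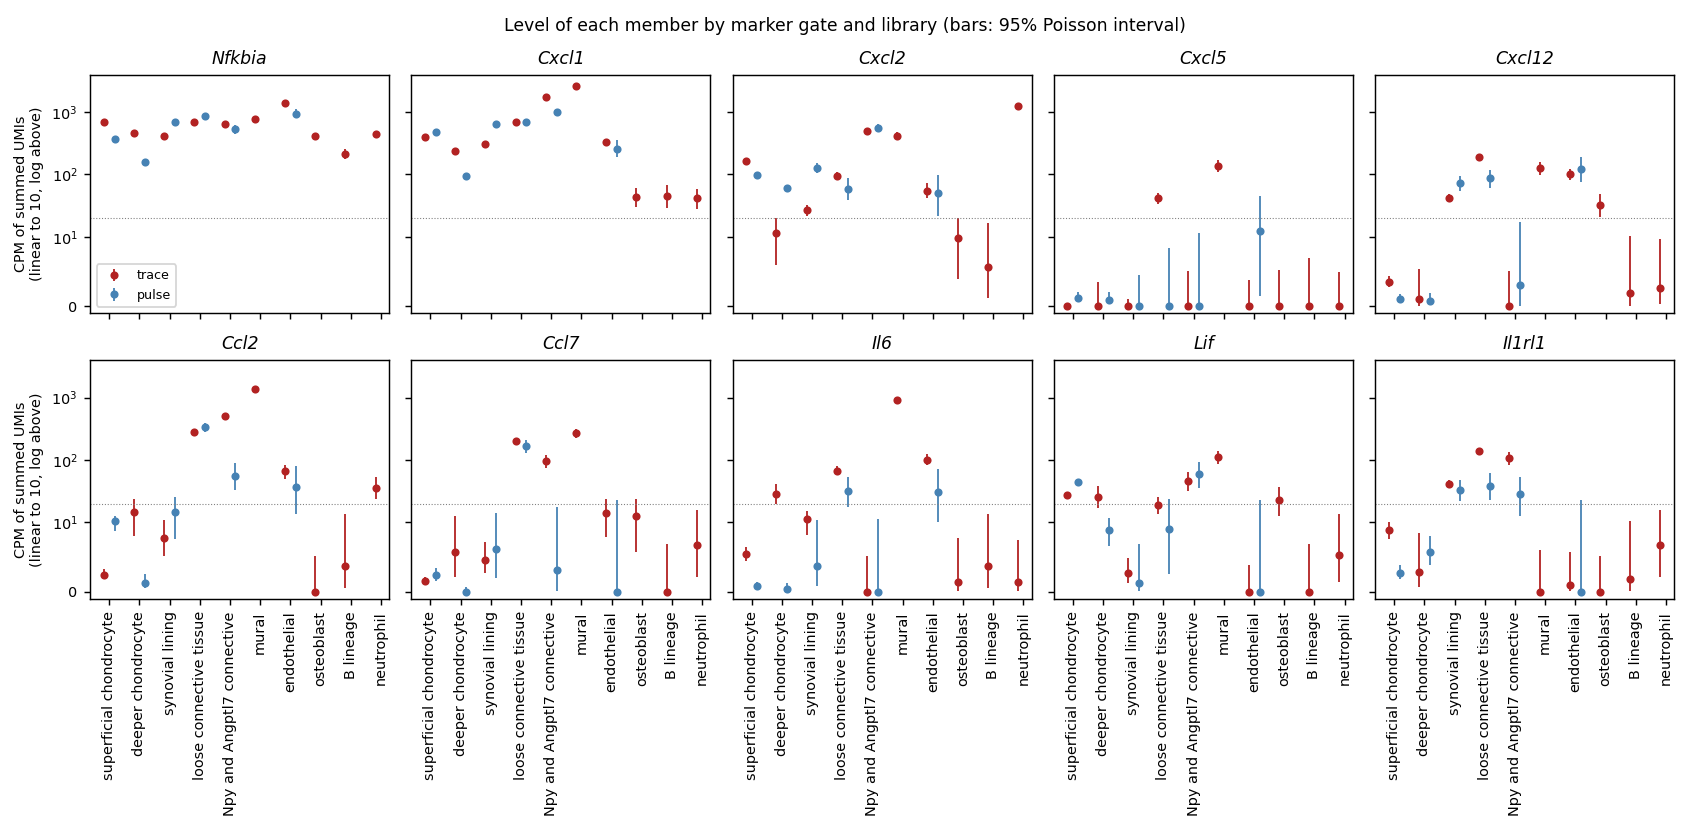
CPM of summed UMIs (vertical axis, linear to 10 and logarithmic above) of each of the 10 genes in each marker gate with 50 or more cells, trace in red left of pulse in blue; bars are exact 95% Poisson intervals and the dotted line marks 20 CPM. Nfkbia was present in every gate, whereas Ccl2 and Ccl7 were high in mural-like, loose connective tissue-like or Npy and Angptl7 cells and low in chondrocyte-like cells. Il6 in trace was highest in mural-like cells, followed by endothelial-like and loose cells. In deeper chondrocyte-like trace cells Il6 lay above the dotted line.

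In superficial chondrocyte-like cells 4 of the 10 genes reached 20 CPM, namely Nfkbia, Cxcl1, Cxcl2 and Lif. None was called: 0 of 4 were higher and 0 of 4 lower in trace, where 2.15% of 6235 genes were higher and 8.97% lower. The other 6 genes were below 11 CPM in both libraries and were seen in under 1% of the cells.

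Nfkbia, the NF-kB inhibitor, stood at 688 CPM (676 to 699) in trace and 371 CPM (360 to 382) in pulse superficial cells, a ratio of 1.85 (1.79 to 1.92). At least 1 UMI was found in 70.5% of trace and 49.4% of pulse cells. In cells with 2000 or more UMIs, thinned to 2000, the shares were 57.9% of 3835 trace and 39.2% of 2889 pulse cells. Cells with fewer UMIs are left out of all thinned values. Over all genes of this gate the median log2 ratio was -0.23, so that the log2 ratio of Nfkbia of 0.89 lay further above the bulk of genes than above 0. With that median as the zero, or with transcripts of ribosomal RNA-associated loci (Gm42418 and others) left out of the totals, Nfkbia passed 2-fold, at a log2 ratio of 1.12 on the first scale. Gm42418 took 6.60% of UMIs in trace and 0.612% in pulse superficial cells.

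Cxcl1, a chemokine that attracts neutrophils through CXCR2, stood at 392 CPM (384 to 401) in trace and 479 CPM (466 to 491) in pulse superficial cells, a ratio of 0.819 (0.792 to 0.848). It was found in 25.3% of trace and 29.6% of pulse cells. Cxcl2, a ligand of the same receptor, stood at 164 CPM in trace and 97.9 CPM in pulse, a ratio of 1.68 (1.57 to 1.80), in 8.15% and 6.48% of cells. Beside Cxcl2, which neutrophils make too, the 7 neutrophil markers summed to 119 CPM in trace and 8.71 CPM in pulse superficial cells, with all 7 detected in both; their part in the Cxcl2 ratio was not tested. Lif, a cytokine of the IL-6 family, stood at 27.6 CPM in trace and 43.8 CPM in pulse, a ratio of 0.630 (0.559 to 0.711), in 6.18% of trace and 6.26% of pulse cells.

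The superficial gate mixes cells with and without Col10a1, a collagen gene known from hypertrophic cartilage, and the mix differed, with 1021 of 4418 cells Col10a1-high in trace and 1403 of 3672 in pulse. The marker genes of this gate summed to 68988 CPM in trace and 33149.5 CPM in pulse. The part of this in the ratios was not tested. Cxcl1 was higher in value in the Col10a1-high cells of both libraries, at 565 CPM in trace and 626 CPM in pulse, than in Col10a1-low cells, at 327 and 372 CPM. Lif stood at 32.0 CPM in trace and 63.4 CPM in pulse Col10a1-high cells, a ratio of 0.505, and at 25.9 and 29.6 CPM in Col10a1-low cells, a ratio of 0.875. Cxcl2 in Col10a1-high cells was the 1 member past 2-fold, at 234 CPM in trace and 115 CPM in pulse (ratio 2.03, 1.84 to 2.24), where 2.96% of all genes were as much higher and 8.29% as much lower.

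The remaining members were rare in superficial cells. Il6 was found in 0.589% of trace cells, Ccl2 in 0.656% and Cxcl12 in 0.860%. In the 191 trace B lineage-like cells, a type not known as a main source of these transcripts, the shares were 1.05%, 0.524% and 0.524%. Those shares rest on very few cells. The median depth of B lineage-like cells was 1867 UMIs against 4291 in superficial cells. Most positive superficial cells held few UMIs, but 6 of the 26 trace cells with Il6 and 5 of the 41 with Il1rl1 held 10 or more. Lif was found in 6.18% of superficial and in 0 of 191 B lineage-like cells, where a floor of 3 cells allows a share of cells with a UMI of up to 1.57% at that lower depth. Cxcl5 was found in 0 of 4418 trace superficial cells, which by the same floor allows a share of cells with a UMI of up to 0.0679%, and its 14 UMIs in pulse came from 1 cell. Il1rl1 was found in 41 trace and 8 pulse superficial cells.

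In deeper chondrocyte-like cells 5 members reached 20 CPM, of which 4 were higher and 1 lower in trace; 3.13% of all genes were higher and 20.2% lower. The make-up of this gate differed between the libraries. Pan-chondrocyte markers summed to 22276 CPM in trace and 37707 CPM in pulse, and superficial markers to 2049 and 900 CPM. The part of this in the ratios was not tested. Nfkbia stood at 468 CPM in trace and 159.9 CPM in pulse, a ratio of 2.92 (2.61 to 3.27). Cxcl1 stood at 234 CPM in trace and 95.7 CPM in pulse, a ratio of 2.44, but 114 of the 244 trace UMIs came from 1 of the 158 cells. The share of cells with Cxcl1 ran the other way, at 10.8% in trace and 16.8% in pulse. Cxcl2 stood at 11.5 CPM in trace and 60.2 CPM in pulse, a ratio of 0.191 (0.0977 to 0.338). Lif stood at 25.9 CPM in trace and 8.88 CPM in pulse, a ratio of 2.91 (1.75 to 4.75). All 30 trace UMIs of Il6 lay in 1 cell, against 2 UMIs in pulse, so its ratio of 81.0 (20.5 to 699) describes that cell.

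In synovial lining-like cells, the fibroblasts that face the joint cavity, 5 members were measured, of which 0 were higher and 2 lower in trace, where 1.7% of all genes were higher and 11.4% lower. The 2 were the CXCR2 ligands. Cxcl1 stood at 306 CPM (288 to 324) in trace and 651 CPM (597 to 709) in pulse, a ratio of 0.470 (0.423 to 0.521). Cxcl1 was no longer past 2-fold when scaled by the median ratio (log2 ratio -0.80) or with ribosomal RNA-associated transcripts left out (-0.94). Cxcl2 stood at 26.7 CPM in trace and 127 CPM in pulse, a ratio of 0.210 (0.158 to 0.278). Few cells carried this: 27 trace and 14 pulse cells with 10 or more UMIs held 80.4% and 65.7% of all Cxcl1 UMIs, and without the 10 cells highest in each gene Cxcl2 fell below 20 CPM in both libraries. Nfkbia stood at 416 CPM in trace and 697 CPM in pulse, a ratio of 0.597 (0.542 to 0.658). Cxcl12, the ligand of CXCR4 and a retention signal for blood-forming and immune cells, stood at 42.3 CPM in trace and 72.3 CPM in pulse, a ratio of 0.585 (0.432 to 0.803). Il1rl1, which encodes the receptor for IL-33, stood at 41.5 CPM in trace and 33.1 CPM in pulse, a ratio of 1.26 (0.831 to 1.96) whose interval holds 1.

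The heat shock list moved with the library in these cells. It summed to 3814 CPM in trace and 10737 CPM in pulse lining cells, and to 6224 CPM in trace and 14218 CPM in pulse loose connective tissue cells. Of its 8 genes 3 were lower in trace in the lining and 5 in the loose connective tissue gate, against 11.4% and 13% of all genes. Hspa1b stood at 1525 CPM in trace and 6430.1 CPM in pulse lining cells. The part of the heat shock list in the lower chemokine values was not tested.

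Loose connective tissue-like cells of trace held UMIs of all 10 genes, 9 of which reached 20 CPM in either library. Of these 9, 4 were higher and 0 lower in trace, where 3.18% of all genes were higher and 13% lower. The 4 were Cxcl12, Il1rl1, Il6 and Cxcl5.

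Cxcl12 stood at 187 CPM (169 to 206) in trace and 86.3 CPM (61.1 to 119) in pulse loose cells, a ratio of 2.17 (1.55 to 3.11), and was found in 18.1% of trace and 9.86% of pulse cells. After thinning the shares lay closer, at 15.8% and 12.6%. With clusters in place of gates the direction of Cxcl12 turned, to a log2 ratio of -0.25, and with 1000 genes or more per cell it was no longer past 2-fold, at 0.86. Il1rl1 stood at 141 CPM (126 to 158) in trace and 38.6 CPM (22.5 to 61.8) in pulse, a ratio of 3.66 (2.25 to 6.36), in 26 of 653 trace and 5 of 213 pulse cells. Il6, a cytokine that acts through gp130 and drives acute-phase responses, stood at 67.2 CPM in trace and 31.8 CPM in pulse, a ratio of 2.11 (1.22 to 3.96), in 19 trace and 5 pulse cells. Cxcl5, another CXCR2 ligand, had 89 UMIs in 2 trace cells and 0 in pulse, at least 6.05-fold higher against a floor of 3 UMIs over the pulse cells; it rests on those 2 cells. Without the 10 cells highest in each gene, Cxcl12 and Il1rl1 remained past 2-fold and Il6 and Cxcl5 did not. For Il1rl1 that removal took all 5 positive pulse cells, so the floor of 3 UMIs set its ratio. The removal also takes a larger part of the 213 pulse than of the 653 trace cells. It is therefore no check on Cxcl12 or Il1rl1.

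The monocyte chemokines Ccl2 and Ccl7, ligands of CCR2, were not called in loose cells. Ccl2 stood at 278 CPM in trace and 332 CPM in pulse, a ratio of 0.837 (0.697 to 1.01), and Ccl7 at 198 CPM in trace and 166 CPM in pulse, a ratio of 1.20 (0.931 to 1.55); both intervals hold 1. Cxcl1 stood at 701 CPM in trace and 695 CPM in pulse, a ratio of 1.01 (0.891 to 1.14), and Nfkbia at 705 CPM in trace and 859 CPM in pulse, a ratio of 0.821. Cxcl2 stood at 94.1 CPM in trace and 59.1 CPM in pulse, a ratio of 1.59 (1.06 to 2.5), but 137 of its 203 trace UMIs lay in 1 cell and its log2 ratio turned to -0.41 with doubled gate thresholds.

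**Figure D2:**
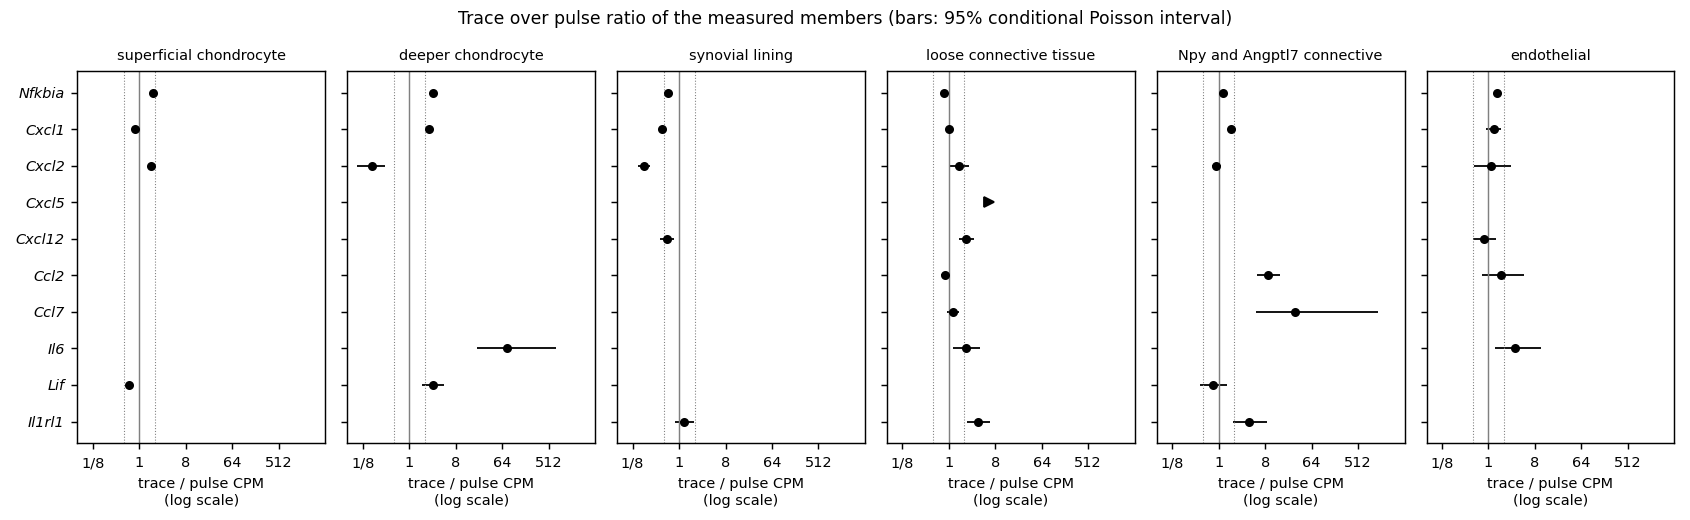
Trace over pulse ratio of CPM (horizontal axis, logarithmic) for each member that reached 20 CPM in either library, by gate; bars are exact conditional Poisson 95% intervals, dotted lines mark 2-fold, and the arrowhead for Cxcl5 is a lower bound. Nfkbia lies right of 1 in both chondrocyte-like gates and left of 1 in the lining gate, and Il1rl1 lies right of 2 in the loose and the Npy and Angptl7 gates.

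The gate set by Npy, Angptl7 and Ltbp2 also held superficial chondrocyte markers, at 25901.5 CPM in trace and 20777 CPM in pulse. Pan-chondrocyte markers summed to 1064 CPM in trace and 7985 CPM in pulse, so its make-up differed between the libraries. The part of this in the ratios below was not tested. Cxcl1 stood there at 1738 CPM (1643 to 1837) in trace and 996 CPM (889.6 to 1111) in pulse. It was found in 37.0% of trace and 40.2% of pulse cells. Of 7 members measured there 3 were higher and 0 lower in trace, against 5.87% and 18.7% of all genes. Ccl2 stood at 508 CPM in trace and 56.0 CPM in pulse, a ratio of 9.08 (5.66 to 15.5), although 5 of the 138 trace cells held 91.3% of its UMIs. Ccl7 had 69 UMIs in trace and 1 in pulse, a ratio of 30.6 (5.32 to 1227). Il1rl1 stood at 106 CPM in trace and 28.0 CPM in pulse, a ratio of 3.80 (1.90 to 8.62), with 8.70% of cells positive in both. Cxcl2 stood at 499 CPM in trace and 551 CPM in pulse, among the highest of any gate, while Il6 had 0 UMIs in both libraries.

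Mural-like cells, the smooth muscle cells and pericytes of vessel walls, carried the highest levels of 6 members. In trace they held Cxcl1 at 2605 CPM (2480 to 2735) in 47.9% of cells, Ccl2 at 1369 CPM in 22.4%, Il6 at 923 CPM (849 to 1001) in 42.6%, Cxcl2 at 417 CPM and Ccl7 at 266 CPM. Their levels of Cxcl1, Cxcl5, Ccl2, Ccl7, Il6 and Lif were the highest of the 10 gates in trace. The intervals did not overlap those of the next gate, but they leave out the spread over cells. For Cxcl5 the order rests on few cells, as 4 of 149 thinned mural-like and 2 of 467 thinned loose cells held it. Set against trace superficial cells, 8 of 9 measured members were higher in mural-like cells and 0 lower, where 24.5% of all genes were higher and 17% lower. Nfkbia was the exception, at 763 CPM in mural-like and 688 CPM in superficial cells. Of the 8, Cxcl5, Cxcl12, Ccl2, Ccl7 and Il6 were below 10 CPM in superficial cells. They passed the filter only through mural-like cells, so those calls were fixed by it. Stress lists moved with this contrast: heat shock genes summed to 11521 CPM in mural-like and 3123 CPM in superficial trace cells and immediate early genes to 7365 and 2112 CPM, at median depths of 2141 and 4291 UMIs. Their part in the difference was not tested. Il1rl1 had 0 UMIs in 263 cells, which by the floor of 3 cells allows a share of cells with a UMI of up to 1.14%. The 31 pulse mural-like cells gave 1788 CPM of Cxcl1, 958.6 CPM of Il6 and 589.9 CPM of Ccl2, too few cells for a ratio.

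Endothelial-like cells had the highest Nfkbia of the 10 gates in trace, at 1399.9 CPM (1327 to 1476) in 80.6% of cells, against 942 CPM (799 to 1105) in 59.7% of pulse cells. Cxcl12 stood at 100.1 CPM in trace and 124 CPM in pulse endothelial-like cells. Of 6 members measured 1 was higher and 0 lower in trace, against 8.42% and 17.2% of all genes: Il6, at 101 CPM in trace and 31.0 CPM in pulse (ratio 3.26, 1.35 to 10.3), with 52 of the 99 trace UMIs in 1 cell. Neutrophil-like cells, of which trace held 256, carried Cxcl2 at 1235 CPM in 44.5% of cells, the highest Cxcl2 of the 10 gates, and Cxcl1 at 41.3 CPM in 5.08% of cells. Osteoblast-like and B lineage-like trace cells held Cxcl1 at 43.4 and 44.7 CPM and Ccl2 at 0 and 3.73 CPM; of 4 members measured in B lineage-like against superficial cells 0 were higher and 4 lower, where 37.1% of all genes were higher and 20.5% lower.

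Set against superficial cells of their own library, loose connective tissue-like cells had 6 of 10 measured members higher and 0 lower in trace, and 6 of 9 higher and 1 lower in pulse. Among all genes 16.3% were higher and 13.4% lower in trace, and 22% and 15.4% in pulse. Cxcl12, Ccl2, Ccl7, Il6 and Il1rl1 were among the higher members in both libraries. All of these, and Cxcl5 in trace, stood at 10.5 CPM or less in superficial cells. They reached 20 CPM only through the loose cells, so the filter all but fixed these calls. The same holds for these genes where other gates are set against superficial cells. The Npy and Angptl7 cells had 5 of 7 higher and 0 lower in trace and 4 of 6 and 0 in pulse, with Cxcl1, Cxcl2, Ccl2 and Il1rl1 higher in both, against 10.9% of all genes higher and 10.9% lower in trace, and 14.8% and 11.3% in pulse. Endothelial-like cells had 4 of 7 higher in each library, namely Nfkbia, Cxcl12, Ccl2 and Il6, with 2 lower in trace and 1 in pulse, against 25.6% and 17.8% of all genes in trace, and 27.8% and 19.7% in pulse. Lining cells had Cxcl12 and Il1rl1 higher of 6 measured in each library, with 2 lower in trace and 1 in pulse, against 15.6% and 16.3% of all genes in trace, and 19.2% and 18.2% in pulse. Deeper chondrocyte-like cells had 1 of 5 higher (Il6, all of it in 1 cell) and 1 lower (Cxcl2) in trace, and 0 of 4 higher and 3 lower in pulse (Nfkbia, Cxcl1 and Lif), against 9.6% and 14.5% of all genes in trace, and 16.6% and 13.3% in pulse.

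Neighbours in the order of levels often could not be told apart. In trace, Nfkbia in mural-like (763 CPM) and loose connective tissue-like cells (705 CPM) had overlapping intervals, as had Cxcl2 in the Npy and Angptl7 (499 CPM) and mural-like cells (417 CPM), and Il1rl1 in the loose (141 CPM) and Npy and Angptl7 cells (106 CPM). In pulse, the first 3 gates for Il1rl1 overlapped one another in turn, at 38.6, 33.1 and 28.0 CPM in loose, lining and Npy and Angptl7 cells, as did the first 3 for Cxcl12, at 124, 86.3 and 72.3 CPM in endothelial-like, loose and lining cells.

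The genes differed widely in how their UMIs were spread over single cells. Nfkbia was spread broadly: in superficial cells thinned to 2000 UMIs its variance was 2.23 times its mean in trace and 2.15 times in pulse, where counting error alone gives a value near 1. Cxcl1 reached 8.59 in trace and 5.82 in pulse, and Cxcl2 reached 23.0 and 9.56. The 243 trace superficial cells with 10 or more Cxcl1 UMIs held 70.6% of its UMIs, and 173 pulse cells held 53.5%. For Cxcl2, 75 of 4418 trace cells held 78.6% of the UMIs, and 29 of 3672 pulse cells held 55.9%.

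UMIs of other members were concentrated in few cells as well. Of the Ccl2 UMIs of trace mural-like cells 90.5% lay in 30 of 263 cells, whereas Il6 was spread over 112 of these cells, with a variance 4.59 times its mean after thinning against 19.5 for Ccl2. In trace loose cells 32 of 653 cells held 84.5% of the Cxcl1 UMIs, up to 324 in 1 cell, and 14 cells held 83.0% of the Ccl2 UMIs. Cxcl12 was less concentrated there, with 46.5% of UMIs in 11 cells with 10 or more.

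**Figure D3:**
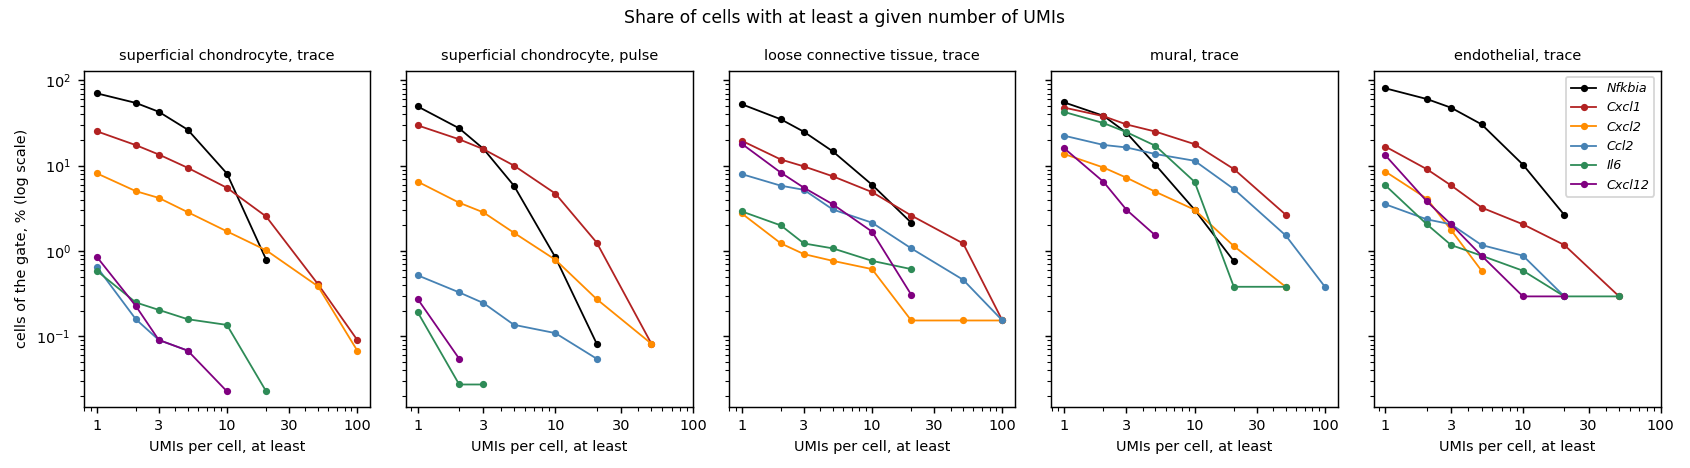
Percentage of the cells of a gate (vertical axis, logarithmic) with at least a given number of UMIs of a gene (horizontal axis, logarithmic), for 6 members in 5 combinations of gate and library. The Nfkbia line starts highest and drops steeply beyond 10 UMIs, while the Cxcl1 line starts lower and runs on to cells with 50 or more UMIs in all 5 panels.

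Some pairs of members were found together in single cells more often than their separate shares give. Among trace superficial cells thinned to 2000 UMIs, 131 of 3835 held both Cxcl1 and Cxcl2, against 43.9 expected if the genes were independent (2.99 times). In pulse 106 of 2889 cells held both, against 42.9 expected (2.47 times). Cxcl1 and Lif were found together in 43 trace cells (1.73 times the expected number) and 71 pulse cells (1.78 times). Nfkbia and Cxcl1 came closer to independence, at 1.20 times in trace and 1.15 times in pulse. Other pairs were at or below the expected number, among them Nfkbia with Cxcl2 (0.70 times) and with Cxcl12 (0.91 times) in trace loose cells and Nfkbia with Lif (0.63 times) in trace mural-like cells. These values describe cells of 1 library each and carry no test.

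Ccl2 and Ccl7, the neighbours on chromosome 11, were found together in 19 of 467 thinned trace loose cells, against 2.88 expected (6.60 times). They were found together in 17 of 149 thinned trace mural-like cells, against 4.59 expected (3.70 times). In mural-like cells all 22 cells with Cxcl2, all 38 with Ccl2 and all 18 with Ccl7 also held Cxcl1, which was present in 79 of the 149. Cxcl12 was near independence of Cxcl1 in trace cells of both gates. In mural-like cells 10 held both, against 10.6 expected, and in loose cells 15 held both, against 13.5 expected. Cxcl12 and Cxcl2 were found together in 2 trace mural-like cells, against 2.95 expected, and in 5 trace loose cells, against 1.90 expected. Among thinned cells, at least 4 members were detected in 29.5% of trace mural-like, 4.07% of trace loose and 0.417% of trace superficial cells. The shares in pulse were 6.90% of loose and 0.485% of superficial cells.

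**Figure D4:**
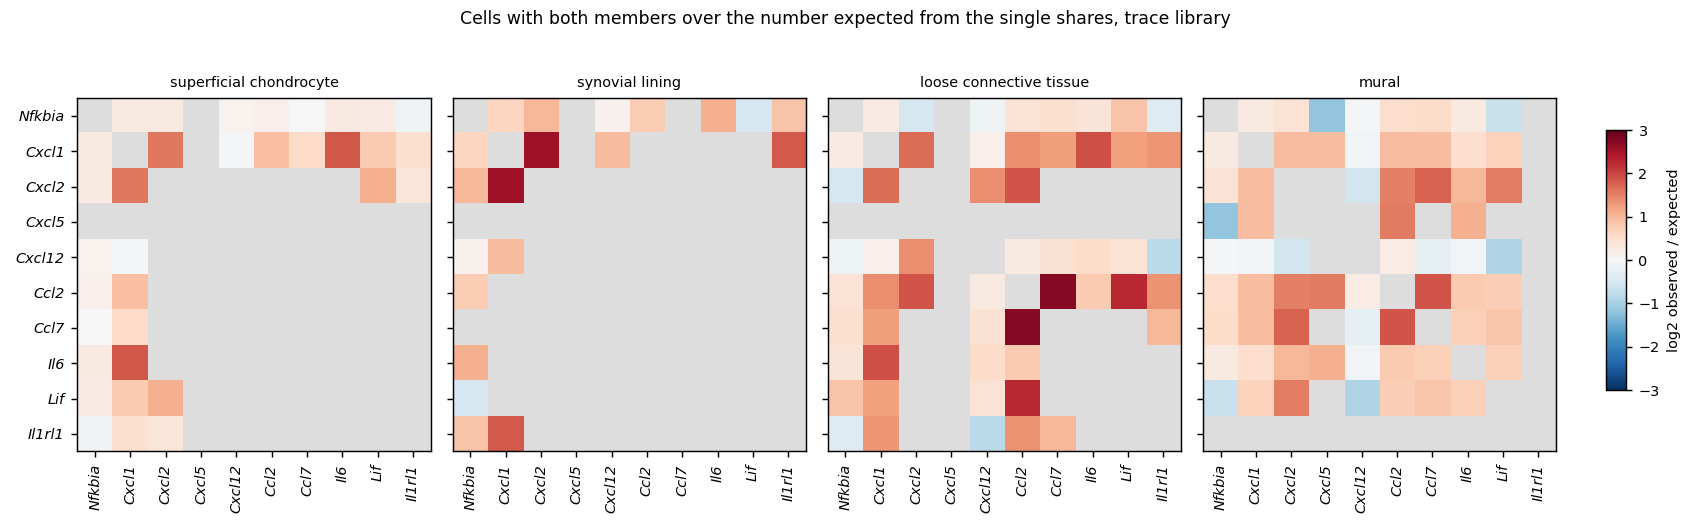
Cells of the trace library thinned to 2000 UMIs that held both of 2 members, over the number expected from the single shares (colour, log2 scale, with 0 cells drawn as 0.5), in 4 gates; grey marks pairs with fewer than 1 cell expected and the diagonal. The Cxcl1 and Cxcl2 pair is red in all 4 gates and the Ccl2 and Ccl7 pair in loose and mural-like cells, while the Cxcl1 and Cxcl12 pair in mural-like cells lies near white.

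Superficial cells rich in Cxcl1 were then set beside superficial cells without it, a split chosen after the values were seen. The 243 trace cells with 10 or more Cxcl1 UMIs had a median of 6425 UMIs and the 3299 with none had 4024; in pulse 173 cells had 4480 and 2584 cells had 2743. In trace 4 of 5 measured members were higher in the rich cells and 0 lower, and in pulse 3 of 4 and 0, where 1.61% of all genes in trace and 1.94% in pulse were as much higher and 0.924% and 1.97% as much lower. Il6 and Il1rl1 in trace and Cxcl2 and Ccl2 in pulse were below 20 CPM in the cells without Cxcl1 and entered the count through the rich cells, so the count supports nothing beyond itself. Cxcl2 stood at 1143 CPM in the rich and 48.1 CPM in the other trace cells (23.8 times), and at 726 CPM and 17.2 CPM in pulse (42.3 times). Lif stood at 74.1 CPM in the rich and 21.4 CPM in the other trace cells (3.46 times), and at 184 CPM and 28.5 CPM in pulse (6.44 times). Nfkbia differed less, at 882 CPM and 616 CPM in trace (1.43 times) and 482 CPM and 339.9 CPM in pulse (1.42 times).

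Of other known NF-kB targets 6 of 12 measured were higher in the rich cells in trace and 8 of 12 in pulse, with 0 lower in both. Among all genes 1.61% were higher and 0.924% lower in trace, and 1.94% and 1.97% in pulse. A target could enter this count through the rich cells alone, so it too supports nothing beyond itself. Of the NF-kB subunits and inhibitors 1 of 11 was higher in trace (Tnfaip3) and 1 of 13 in pulse (Nfkb2), with 0 lower in both. Icam1, an adhesion molecule for leukocytes, stood at 1083 CPM in the rich and 487 CPM in the other trace cells (2.22 times) and at 2.18 times in pulse. Csf1, the growth factor of macrophages, was 3.10 times as high in the rich cells in trace and 4.18 times in pulse, and Cx3cl1, a membrane-bound chemokine, 2.45 and 2.52 times. Of the 8 heat shock genes 0 were higher and 4 lower in the rich trace cells, and 0 and 0 in pulse. Of the immediate early genes, which tissue dissociation is known to induce, 0 of 14 were higher and 4 lower in trace, and 4 of 13 higher and 1 lower in pulse.

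Nfkbia and Cxcl1 went different ways when cells were ordered by their immediate early transcripts. Loose connective tissue-like cells of trace held Nfkbia at 453, 508 and 1265 CPM from the lowest over the middle to the highest tercile of the immediate early list, and Cxcl1 at 1478, 252 and 114 CPM. In pulse loose cells Nfkbia stood at 157, 402 and 2041 CPM, and Cxcl1 at 699.9, 945 and 447 CPM. Trace lining cells held Nfkbia at 246, 288 and 718 CPM and Cxcl1 at 593, 216 and 87.5 CPM. Pulse lining cells held Nfkbia at 103, 330.3 and 1484 CPM and Cxcl1 at 789, 889.7 and 335 CPM. In all 4 combinations Nfkbia was highest and Cxcl1 lowest in the tercile with the most immediate early transcripts.

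Superficial cells did not share this pattern. Nfkbia stood at 669, 722 and 669 CPM over the terciles in trace and at 355, 344 and 413 CPM in pulse, and Cxcl1 at 408, 416 and 354 CPM in trace and 389, 488 and 550.5 CPM in pulse. The part of dissociation in these levels was not tested.

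**Figure D5:**
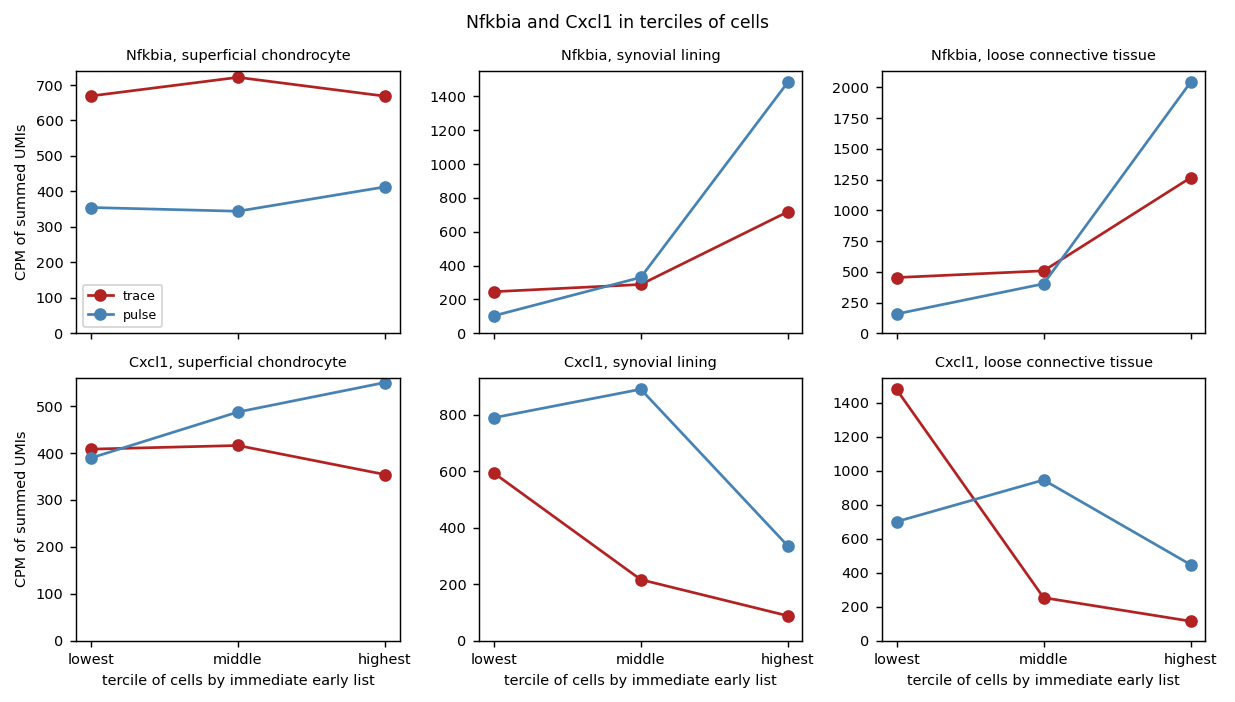
CPM of Nfkbia (upper row) and Cxcl1 (lower row) in terciles of cells ordered by the summed share of 14 immediate early genes, lowest to highest, in 3 gates; trace in red, pulse in blue. In lining and loose cells the highest tercile has the most Nfkbia and the least Cxcl1 in both libraries, while the superficial lines stay between 344 and 722 CPM.

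Genes upstream and downstream of these members were read from fixed lists in superficial cells. Among all genes of this gate 2.15% were higher and 8.97% lower in trace, and the counts of each list are to be read against these shares. Of 12 measured NF-kB subunits and inhibitors 1 was higher and 2 lower in trace. Rela, the main activating subunit, stood at 74.9 CPM in trace and 315 CPM in pulse, a ratio of 0.238 (0.224 to 0.252), and Nfkbib, another inhibitor, at 18.4 and 58.4 CPM, a ratio of 0.315. Bcl3, an atypical inhibitor family member in the nucleus, stood at 50.6 CPM in trace and 24.5 CPM in pulse, a ratio of 2.06 (1.81 to 2.35). Tnfaip3, the feedback inhibitor A20, stood at 64.0 CPM in trace and 42.5 CPM in pulse, a ratio of 1.51.

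Of 11 measured other NF-kB targets 0 were higher and 2 lower in trace superficial cells, and of 6 receptors and ligands upstream 1 was higher and 1 lower. Ier3 stood at 1423 CPM in trace and 3294 CPM in pulse, a ratio of 0.432, and Tnfaip6, a hyaluronan-binding protein of inflamed joints, at 26.4 and 61.7 CPM, a ratio of 0.428. Cx3cl1 stood at 79.4 and 155 CPM (ratio 0.512) and Zc3h12a, an RNase that limits cytokine transcripts, at 40.7 and 68.2 CPM (ratio 0.596). Cd14, a co-receptor of Toll-like receptors, stood at 290.4 CPM in trace and 97.0 CPM in pulse, a ratio of 3.00 (2.81 to 3.19). Il1rap, the shared chain of the IL-1 and IL-33 receptors, stood at 39.4 CPM in trace and 136 CPM in pulse, a ratio of 0.290. Tlr4 and Tlr2 had ratios of 0.536 and 0.602.

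Of 11 chemokine receptors 2 were measured in superficial cells and none was called. Ackr3, a scavenging receptor for the Cxcl12 product, stood at 668 CPM in trace and 549 CPM in pulse (ratio 1.22), and Ackr2, a scavenger of CC chemokines, at 55.7 and 70.9 CPM (ratio 0.786). Of 10 genes of IL-6 family reception and response 2 were higher and 0 lower: Socs3, the feedback inhibitor of this pathway, at 35.1 CPM in trace and 14.5 CPM in pulse (ratio 2.42), and Lifr, the receptor of Lif, at 36.0 and 17.2 CPM (ratio 2.09). Cebpb had a ratio of 1.42 and Pim1 of 0.720. Immediate early genes went both ways, with 2 of 14 higher and 3 lower: Fos stood at 149 CPM in trace and 40.4 CPM in pulse (ratio 3.70) and Fosb had a ratio of 2.95, while Egr1 had 0.443 and Klf6 0.346. Of 8 heat shock genes 0 were called, with Hspd1 at a ratio of 1.90, Hspa1b at 0.621, Hsph1 at 0.665 and Hspb1 at 0.699.

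In the lining gate 6 of 12 subunits and inhibitors and 5 of 12 other targets were lower in trace, with 0 and 1 higher. Among all genes there 11.4% were lower and 1.7% higher. In the loose gate 5 of 13 and 6 of 13 were lower and 0 higher, where 4 members were higher. Among all genes there 13% were lower and 3.18% higher. In deeper chondrocyte-like cells 2 of 11 and 2 of 10 were lower and 0 higher. These counts lie near the shares of all genes there, 20.2% lower and 3.13% higher.

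Over the 16 combinations of gate and library with 50 or more cells, the genes whose log2 level followed each member most closely among 8432 genes were named as a description; the combinations share their libraries. For Nfkbia they were F2r (Pearson r 0.87), Sbds (0.80) and Znfx1 (0.80). For Cxcl1 they were Atp2a2 (0.90), Tns2 (0.88) and Rac1 (0.88), and for Ccl2 they were Thy1 (0.79), Csnk1e (0.79) and Syne2 (0.79). Cxcl12 was followed by Nid1 (0.93), Col4a1 (0.90) and Igfbp4 (0.90), and Il1rl1 by Ssc5d (0.88), Scara5 (0.87) and Ugp2 (0.87). Scara5 marked the loose gate, where it reached 554 CPM in pulse.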

How the data were processed

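For both libraries the authors deposited whole UMI counts by gene and cell barcode, with no normalization. Cell Ranger 7.1.0 is named per the file headers, and Cell Ranger 3.0.1, Seurat, STAR, HTSeq and DESeq2 with mm10 per the submitters' processing notes; which of these made the counts, and whether intron reads were counted, is not given in the sources used here. The genes and lists were chosen with earlier results of these data known.

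Cells with 500 or more genes and 10% or less mitochondrial UMIs were kept. A cell met a gate at a marker density per 10000 UMIs of 100 (superficial chondrocyte), 50 (deeper chondrocyte), 20 (synovial lining), 15 (loose connective tissue), 10 (Npy and Angptl7, endothelial, B lineage), 25 (mural), 60 (osteoblast) or 200 (neutrophil), with 2 or more distinct markers. Chondrocyte gates also needed 20 of pan-chondrocyte markers, and the deeper gate under 50 of superficial ones. Where several gates were met, the best had to be 2 times as far past its threshold as the next, or the cell was left out. Thresholds were set on marker levels after these were seen, and Col10a1-high means 10 or more per 10000 UMIs. Scrublet, through scanpy 1.11.5, called 0 of 9247 trace and 0 of 6533 pulse cells and so did not work; instead, removing the top 5% of scores was an alternative.

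UMIs were summed per gate and library and scaled to CPM, with exact Poisson, conditional Poisson (ratios) and Clopper-Pearson (shares) 95% intervals, which cover counting error only; a share of 0 is given with the limit that a floor of 3 cells allows. Thinning to 2000 UMIs used only cells with 2000 or more, which were 7226 in trace and 4765 in pulse. Scripts ran on Python 3.11.15 with scipy 1.17.1, numpy 2.4.6 and pandas 2.3.3. The ratio and the 2-fold call were run on simulated Poisson sums, the model that the intervals assume. Those sums lack the spread over cells seen here, so the run cannot show how the calls hold for such counts. Named genes were the 10 members, from each list the 4 or fewer measured genes furthest from a log2 ratio of 0 in superficial cells, and the 3 genes most like each of 5 members by Pearson r of log2(CPM + 1), among genes at 20 CPM or more in 2 or more combinations, leaving out predicted, mitochondrial and ribosomal protein genes. Mmp3, Icam1, Csf1 and the leading genes of gates were named after their values were seen. Promoter windows are from RefSeq.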

Additional observations from a re-analysis of the deposited data

Results flagged for a closer look

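Several members moved in opposite directions between trace and pulse in different gates, beyond counting error in each; with 1 library per group the difference between gates was not tested. Each value is the log2 trace over pulse ratio in the first gate minus that in the second. For Nfkbia it was 1.63 for superficial chondrocyte-like against synovial lining-like cells and 2.29 for deeper chondrocyte-like against lining cells. For Cxcl1 it was 2.38 for deeper chondrocyte-like against lining cells, where 1 trace cell held 114 of 244 UMIs. For Cxcl2 it was 3.14 for superficial against deeper chondrocyte-like cells, 3.00 for superficial against lining cells, 3.06 for loose connective tissue-like against deeper chondrocyte-like cells and 2.93 for loose against lining cells. The last 2 rest on a log2 ratio of Cxcl2 in loose cells of 0.67, which turned to -0.41 with doubled gate thresholds, and 1 trace loose cell held 137 of the 203 Cxcl2 UMIs. For Cxcl12 it was 1.89 for loose against lining cells, but its log2 ratio in loose cells turned to -0.25 with clusters in place of gates. For Lif the difference was 2.21 for deeper against superficial chondrocyte-like cells.

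Cells left out because they met both the superficial and the Npy and Angptl7 gates held Il1rl1 at 674.7 CPM in trace (213 UMIs in 12 of 51 cells) and 234.0 CPM in pulse (51 UMIs in 6 of 62 cells). Cells of the superficial gate held it at 8.84 CPM in trace and 2.68 CPM in pulse.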

How the results depend on the processing

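No paired analysis was possible because each group has 1 library. In superficial cells the count of members at least 2-fold higher in trace went from 0 to 1 when scaled by the median ratio or with ribosomal RNA-associated transcripts left out (Nfkbia), to 1 in Col10a1-high cells alone (Cxcl2) and to 3 with a floor of 3 UMIs, and the count lower went to 1 at a floor of 10 CPM and 2 at 3 UMIs. In lining cells the count lower went from 2 to 1 with median scaling or without those transcripts, as Cxcl1 was lost, and without the 10 highest cells, as Cxcl2 was lost; the count higher went from 0 to 1 at 10 CPM and 2 at 3 UMIs. In loose cells the count higher went from 4 to 2 without the 10 highest cells, which was chosen after seeing the data, as was the Col10a1 split. Of those 2, Il1rl1 had no UMI left in pulse, so the floor of 3 UMIs set its ratio. Cxcl12 in loose cells reversed to a log2 ratio of -0.25 with clusters in place of gates; the cause was not tested. Removing the top 5% of Scrublet scores, 1000 genes per cell and doubled thresholds left these 6 counts within 1.5 times, but not always the same members: in loose cells Cxcl12 was lost with 1000 genes (log2 ratio 0.86), and Cxcl5 was lost and Lif gained with doubled thresholds, while in lining cells both settings added Cxcl12 to those lower (-1.04 and -1.26). Cxcl2 in loose cells, which was not called, turned from a log2 ratio of 0.67 to -0.41 with doubled thresholds. Over the alternatives the log2 ratio of Nfkbia in superficial cells ranged from 0.84 to 1.12, and that of Cxcl1 in lining cells from -1.66 to -0.80. Of 150 shares of cells with a UMI, 47 moved beyond their interval after thinning to 2000 UMIs, which also left out cells with fewer UMIs.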
